A study of Mus musculus with 9 samples.

Results

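The mRNAs described here encode the lysosome's digestive enzymes, its membrane proteins and the proton pump that acidifies it, together with 2 transcription factors of lysosomal genes and 1 autophagy receptor. They are 39 genes given by name, found among the 22396 genes of the count matrix by matching Ensembl identifiers to symbols, and all 39 were present. Their levels are given as CPM, the count of a gene scaled to the same total in each library. The study asked which RNAs the cytosolic RNA sensor RIG-I holds when OSGEP, the catalytic subunit of the KEOPS complex that installs a modified adenosine on tRNAs, is depleted. All libraries came from B16F10 cells, a mouse melanoma line, that carried FLAG-tagged RIG-I and a stably introduced shRNA, either a control (shCtr) or one of a pair directed at OSGEP (shOSGEP#1, shOSGEP#2). RNA that came down with the FLAG tag was depleted of ribosomal RNA and sequenced from stranded libraries, with 3 replicates per shRNA and 9 libraries in all. The infected cells of all arms are of a single line, and RNA of the unfractionated lysate was not analysed here, so a larger amount of an mRNA in the cell and a larger share of it bound to RIG-I cannot be told apart. The 9 libraries include no pull-down from cells without the tag, so RNA carried along without binding to RIG-I is not separated from bound RNA. In such bulk samples fewer cells of a type and less RNA per cell cannot be told apart either.

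Lysosomes degrade protein, lipid and glycan delivered by endocytosis and autophagy, using hydrolases that work at low pH. The vacuolar ATPase sets that pH: its cytosolic V1 sector hydrolyses ATP and its membrane V0 sector carries the protons. TFEB and TFE3, relatives of the melanocyte regulator MITF, bind an element around the bases CACGTG upstream of many lysosomal genes, and in pigment cells the lysosome shares much of its machinery with the melanosome.

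The shCtr libraries held 40333037, 47750758 and 41805753 counts (replicates 1 to 3) and those of shOSGEP#1 held 34551436, 50224299 and 30697653 counts. For shOSGEP#2 the totals came to 25460689, 568995 and 14914731 counts, so the library of shOSGEP#2 replicate 2 is far shallower than the rest. A floor of 3 counts corresponds to 5.27 CPM in that library and to at most 0.201 CPM in the other 8, for counting error only. In that library 21 of the 39 members had no count, although 17 of these 21 would have had at least 10 counts at the mean CPM of shOSGEP#2 replicates 1 and 3. It was therefore left out of the fit, its values are shown apart, and counts of calls and medians with it are given further below. With it in the fit edgeR called 0 genes in each comparison, so every edgeR call below rests on the other 8 libraries or fewer. Osgep (ENSMUSG00000006289), the target of the shRNAs, stood at 19.1, 19.9 and 15.5 CPM in shCtr, at 3.76, 1.16 and 1.53 CPM in shOSGEP#1, at 0.0785 and 2.88 CPM in shOSGEP#2 replicates 1 and 3 and at 0 in shOSGEP#2 replicate 2. With the shallow library set aside, every shOSGEP library was below every shCtr library. The edgeR quasi-likelihood test gave adjusted p = 0.0128 for shOSGEP#1 and 0.0150 for shOSGEP#2, both above the threshold of 0.01 used here. Some alternatives did pass: for shOSGEP#1 the adjusted p was 0.000639 with no filter on low counts, 0.000972 with only the groups compared, 0.000964 without shOSGEP#2 replicate 1 and 0.000920 without shOSGEP#2 replicate 3. For shOSGEP#2 it was 0.000838 with no filter and 0.00135 without shOSGEP#2 replicate 3, and DESeq2 gave 0.00904 on 8 libraries and 0.00867 on all 9 for Osgep.

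The labelled cell line was checked against marker genes. A marker named as leading its list has the highest mean CPM over the 8 deep libraries, and another can be higher in single libraries. All 8 melanoma line markers were detected, led by Gpnmb, and their summed level was 8880, 8065 and 10702 CPM in shCtr, 10458, 13562 and 12386 CPM in shOSGEP#1, 3717 and 4611 CPM in shOSGEP#2 replicates 1 and 3 and 2511 CPM in the shallow library. The sum was thus lowest in the shOSGEP#2 libraries, although Sox10, at 1090 CPM in the shallow library, was above its level in every other library. The 10 macrophage markers summed to at most 5.53 CPM in any library, with Cd68, itself a lysosomal protein, the most abundant on that mean and Itgam and Cx3cr1 at 0 in all 8 deep libraries. In every shOSGEP#1 library Lyz2 was above Cd68. The 10 endothelial and lymphocyte markers summed to at most 3.96 CPM, led by Pecam1 on the mean, with Cd8a and Ncr1 at 0 in the 8 deep libraries. The 8 fibroblast markers, led by Pdgfrb and with Lum at 0, summed to 9.15, 10.9 and 10.4 CPM in shCtr, 11.7, 11.9 and 12.7 CPM in shOSGEP#1, 30.4 and 63.8 CPM in shOSGEP#2 replicates 1 and 3 and 68.5 CPM in replicate 2. In replicate 2 the whole fibroblast sum came from Col1a1, with Pdgfrb at 0. The marker sums of melanoma and fibroblast genes therefore move with shOSGEP#2. Single pigment cell markers also moved with shOSGEP#1, in opposite directions, and were picked out here after their values were seen. Gpnmb, a glycoprotein of melanosomes and lysosomes, was at 2543, 2027 and 2229 CPM in shCtr, 4170, 5997 and 5546 CPM in shOSGEP#1, 1100 and 1236 CPM in shOSGEP#2 replicates 1 and 3 and 847 CPM in replicate 2. Tyr, for tyrosinase, was at 153, 152 and 193 CPM in shCtr, 30.4, 26.1 and 27.3 CPM in shOSGEP#1, 5.93 and 19.8 CPM in shOSGEP#2 replicates 1 and 3 and 0 in replicate 2. For shOSGEP#1 the edgeR fit gave a log2 fold change of 1.20 for Gpnmb (adjusted p = 0.000944) and of -2.59 for Tyr (adjusted p = 0.000560), and the adjusted p of the other 6 melanoma markers was at least 0.0796. With shOSGEP#2 each melanoma marker had a negative log2 fold change. In edgeR it passed for Tyr (-3.83, adjusted p = 0.000213), Dct (-2.00, 0.00012), Pmel (-2.06, 0.000592) and Mlana (-1.41, 0.00106). It also passed for Sox10 (-0.99, adjusted p = 0.00158) and Gpnmb (-1.05, 0.00314), but not for Mitf (-1.42, 0.0166) or Tyrp1 (-0.79, 0.0334). Of all genes tested, 3.89% fell with shOSGEP#2. The part of the pigment cell and fibroblast markers in the results below was not tested.

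The summed level of the 14 cathepsins and glycosidases was 2002, 1644 and 1699 CPM in the shCtr libraries, 2741, 3854 and 4221 CPM in shOSGEP#1, 1712 and 1529 CPM in shOSGEP#2 replicates 1 and 3 and 673 CPM in the shallow replicate 2. For this sum, all shOSGEP#1 libraries lay above all others, and shOSGEP#2 replicates 1 and 3 lay among or below the controls. The 13 pump subunits summed to 3679, 3883 and 4127 CPM in shCtr, 3416, 3859 and 3815 CPM in shOSGEP#1, 3091 and 3273 CPM in shOSGEP#2 replicates 1 and 3 and 1555 CPM in replicate 2. Their sum overlapped between shOSGEP#1 and shCtr and was lower in both deep shOSGEP#2 libraries than in any shCtr library.

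**Figure D1:**
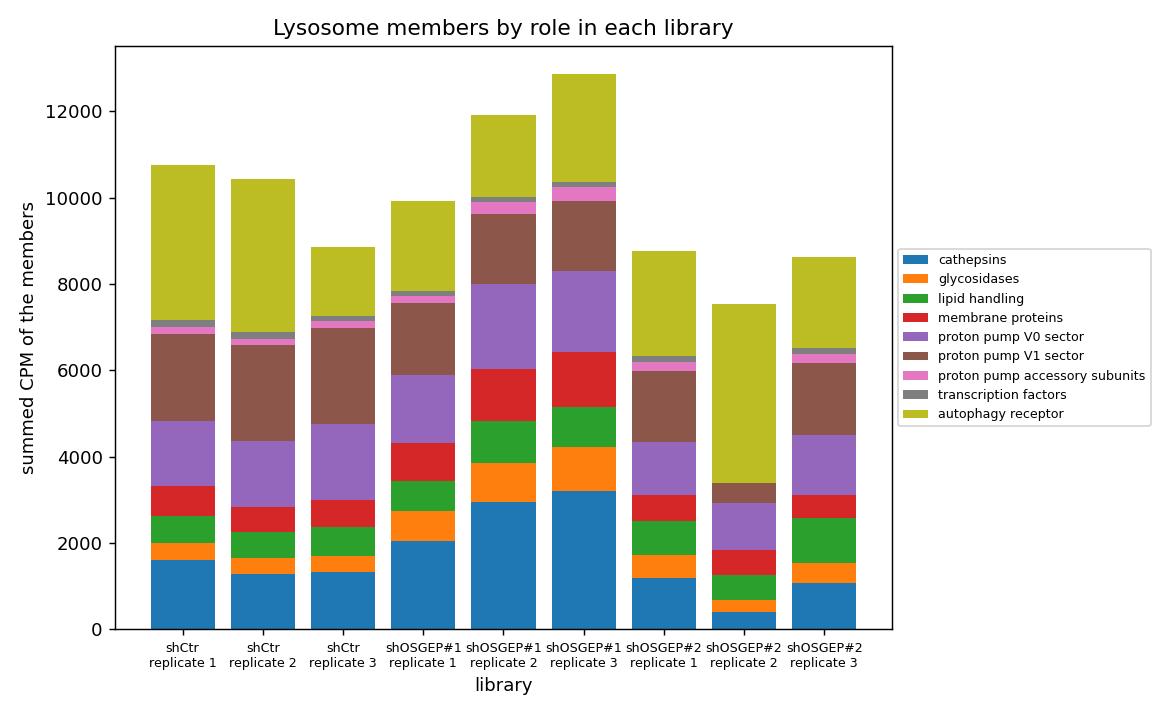
Summed CPM of the 39 lysosome members in each of the 9 libraries, stacked by role, with the height of each colour giving that role's sum. Sqstm1, the autophagy receptor, makes up the largest block in shCtr replicates 1 and 2, shOSGEP#1 replicate 1 and all shOSGEP#2 libraries, and the cathepsin block is taller in each shOSGEP#1 library than in any library of the other groups, at 2036, 2942 and 3206 CPM.

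In the edgeR quasi-likelihood test on 8 libraries, 38 of the 39 members passed the filter on low counts, and Ctss, with 2 counts in a single library, did not. Calls are adjusted p values under 0.01, with Benjamini-Hochberg adjustment over all 12744 genes tested. For shOSGEP#1 against shCtr, 4 of 38 members rose (Ctsa, Ctsb, Hexa and Gusb) and 2 fell (Atp6v0a1 and Atp6v1e1), where 5% of all genes tested rose and 4.67% fell. For shOSGEP#2 against shCtr, none rose and 2 fell (Ctsd and Atp6v1d), against 5.66% and 3.89% of all genes. Between the shRNAs, 9 members were lower in shOSGEP#2 than in shOSGEP#1 and 1 was higher, against 4.56% and 6.23% of all genes. These counts are small, and nothing particular to the list is read from them. At an adjusted p under 0.05, 13 members were higher and 5 lower in shOSGEP#1 (all genes: 11.5% and 10.5%), 4 higher and 5 lower in shOSGEP#2 (11.3% and 9.64%), and 1 higher and 12 lower in shOSGEP#2 than in shOSGEP#1 (12% and 11.2%). The CPM of every shOSGEP#1 library lay above that of every shCtr library for 16 members and below it for 6, where this held for 23.1% and 22.2% of all genes tested. For the deep shOSGEP#2 libraries these counts were 12 and 10, against 28.7% and 23.6%.

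The median log2 fold change of the 38 members was 0.42 for shOSGEP#1 against shCtr, beside 0.0021 over all genes tested. It was -0.20 for shOSGEP#2 against shCtr, beside -0.057, and -0.26 for shOSGEP#2 against shOSGEP#1, beside -0.043. The first and second of these comparisons share the 3 shCtr libraries. Single libraries moved these medians. The -0.20 became -0.10 without shCtr replicate 3, beside -0.048 over all genes. The -0.26 became -0.40 without shOSGEP#1 replicate 1, beside -0.033 over all genes. By role, the shOSGEP#1 median was 0.82 for cathepsins, 0.59 for glycosidases, 0.34 for lipid-handling proteins, 0.75 for membrane proteins, -0.045 for the V0 sector and -0.050 for the V1 sector. The shOSGEP#2 medians in the same order were 0.079, -0.066, 0.60, -0.014, -0.29 and -0.48.

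Single libraries decide some of these counts. The number of members called for shOSGEP#1 was 3 without shCtr replicate 2 and 12 without shOSGEP#1 replicate 1, in place of 6. The calls over all genes moved as well, to 318 of 12641 and 1091 of 12735, from 1232 of 12744. For shOSGEP#2 the 2 calls became 0 without shCtr replicate 1, without shCtr replicate 2, without shCtr replicate 3 or without shOSGEP#2 replicate 3 (edgeR, with 12, 11, 13 and 12 members at an unadjusted p under 0.05, where all genes had 3664 of 12645, 3584 of 12641, 3946 of 12608 and 3623 of 13321), 1 without shOSGEP#1 replicate 2 and 4 without shOSGEP#1 replicate 3. Over all genes the calls in these fits were 584 of 12645, 518 of 12641, 766 of 12608, 631 of 13321, 900 of 12611 and 1471 of 12662, in place of 1217 of 12744. Between the shRNAs the 10 calls became 6 without shOSGEP#1 replicate 2 and 2 without shOSGEP#2 replicate 3, and those over all genes 821 of 12611 and 743 of 13321, in place of 1375 of 12744. With shOSGEP#2 replicate 2 in the fit, edgeR called no member and no other gene in any of the 3 comparisons, with 5, 2 and 7 members at an unadjusted p under 0.05 (all genes: 620 of 12337, 1240 of 12337 and 1325 of 12337). DESeq2 on all 9 called 0, 0 and 1 member and, over all genes, 122 of 15712, 349 of 15712 and 413 of 15712. On the 8 libraries DESeq2 called 12 members higher and 4 lower in shOSGEP#1, and 4 higher and 5 lower in shOSGEP#2, while over all genes it called 2419 of 15710 and 2405 of 15710. These all-gene counts of DESeq2 pool both directions. Their totals include genes that DESeq2 gave no adjusted p, as was the case for 1 member, so they are not a like share. Members below the threshold here but under the same 0.01 in at least 1 alternative fit, in DESeq2 or edgeR, were for shOSGEP#1 Atp6ap1, Atp6ap2, Cd63, Ctsl, Ctsz, Glb1, Lamp1, Lamp2 and Psap (higher) and Atp6v0d1 and Tfeb (lower), for shOSGEP#2 Asah1, Ctsl, Npc1 and Psap (higher) and Atp6v0a1, Atp6v0d1 and Atp6v1c1 (lower), and between the shRNAs Atp6v0c, Ctsf and Ctsz (lower in shOSGEP#2).

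Some of these counts carry a further uncertainty from the annotation. Exons of Ctsa, Ctsb, Ctsz, Hexa, Npc1, Lamp1, Atp6v1e1, Atp6v1h and Sqstm1 lie across from exons of a counted gene on the opposite strand, and those of Ctsd and Glb1 share bases with a counted gene on the same strand. The libraries are stranded, which can separate opposite strands, but the strand setting of the counting is not given in the sources used here, so the counts of these genes are uncertain to that extent.

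**Figure D2:**
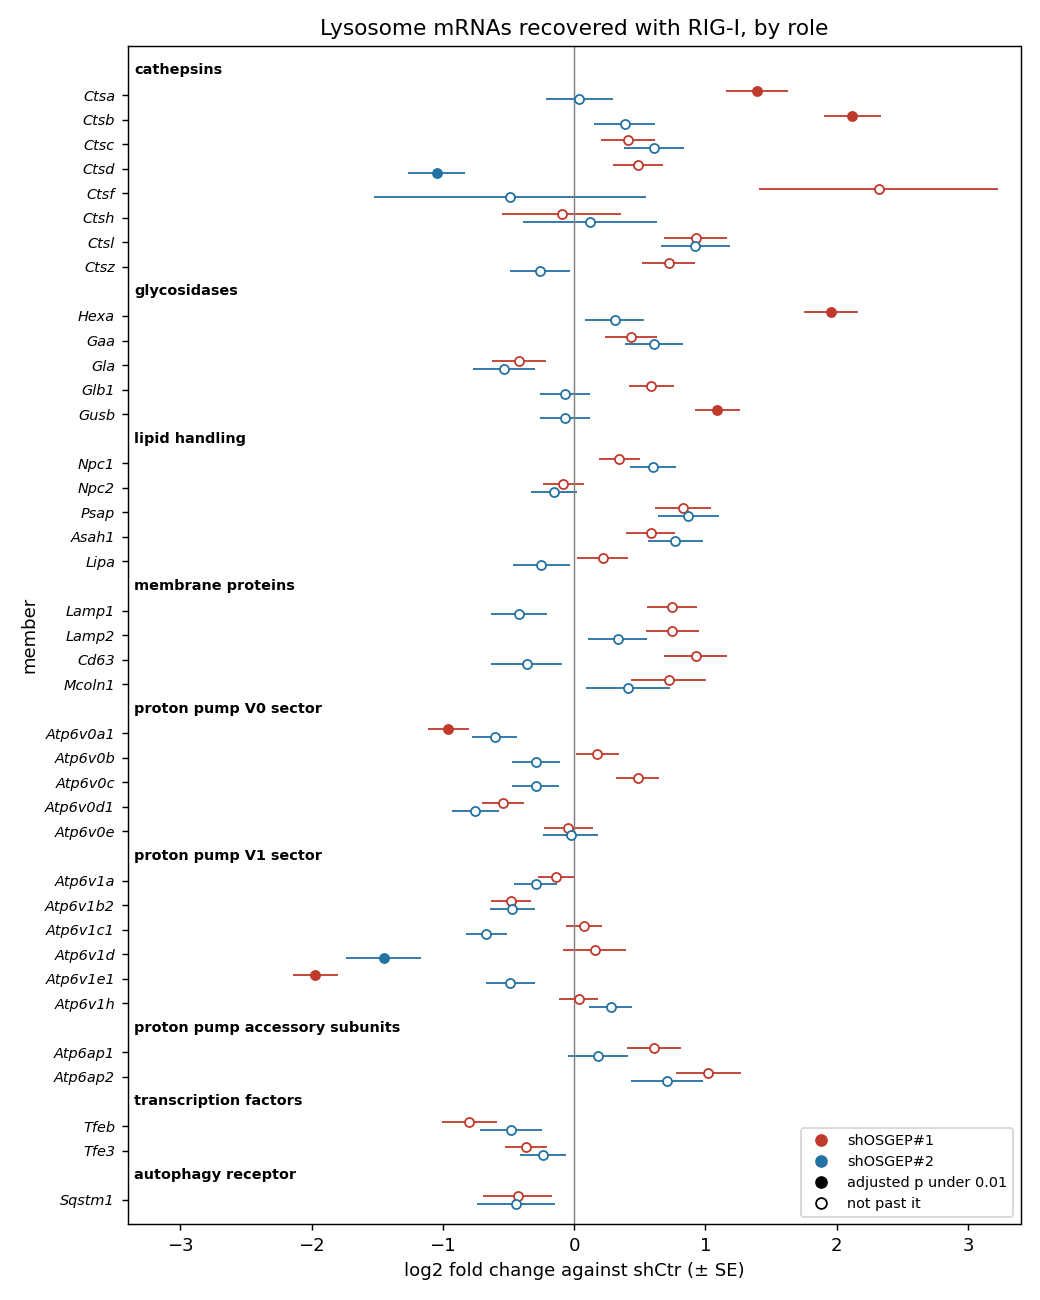
Log2 fold changes against shCtr of the 38 members tested, by role, for shOSGEP#1 (red) and shOSGEP#2 (blue, replicates 1 and 3), with bars giving the SE of the edgeR fit and filled points an adjusted p under 0.01. Ctsb at 2.12 and Hexa at 1.96 lie farthest right among the filled points and Atp6v1e1 at -1.97 farthest left.

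Among the 9 cathepsins, the lysosome's proteases and carboxypeptidases, Ctsb and Ctsa rose with shOSGEP#1, and Ctsd fell with shOSGEP#2. Ctsb, which encodes the cysteine protease cathepsin B, was at 219, 176 and 175 CPM in the shCtr libraries, 560.5, 918 and 1015 CPM in shOSGEP#1, 269.7 and 259 CPM in shOSGEP#2 replicates 1 and 3 and 31.6 CPM in replicate 2. Each shOSGEP#1 library was above every other library, and the deep shOSGEP#2 libraries were slightly above the controls. The mean rose from 189.8 ± 25.0 CPM (SD, n = 3) to 831 ± 239 CPM (SD, n = 3). This is a 4.34-fold rise in the edgeR fit (log2 fold change 2.12, SE 0.22, adjusted p = 0.000255), whereas shOSGEP#2 against shCtr gave log2 fold change 0.39, SE 0.23, adjusted p = 0.261. The difference between the shRNAs also passed the test (log2 fold change -1.73, SE 0.25, adjusted p = 0.000779), with an adjusted p of 0.0105 without shOSGEP#2 replicate 3.

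Ctsa encodes cathepsin A, a serine carboxypeptidase that also protects beta-galactosidase and neuraminidase in a complex. Its level was 102, 83.3 and 72.1 CPM in shCtr, 166, 252 and 263 CPM in shOSGEP#1, 115 and 72.3 CPM in shOSGEP#2 replicates 1 and 3 and 84.4 CPM in the shallow library. All shOSGEP#1 libraries lay above the rest, and the shOSGEP#2 and shCtr ranges overlapped. Ctsa rose with shOSGEP#1 in the edgeR test (log2 fold change 1.39, SE 0.23, adjusted p = 0.00234) and gave log2 fold change 0.040, SE 0.26, adjusted p = 0.929 with shOSGEP#2. It was lower in shOSGEP#2 than in shOSGEP#1 (log2 fold change -1.35, SE 0.27, adjusted p = 0.00477). The adjusted p of the shOSGEP#1 rise was 0.0163 without shCtr replicate 2, 0.0125 without shOSGEP#1 replicate 2 and 0.0117 without shCtr replicate 3, and that of the difference between the shRNAs was 0.0152 with only the groups compared, 0.0171 without shOSGEP#1 replicate 2, 0.0145 without shOSGEP#1 replicate 3 and 0.0465 without shOSGEP#2 replicate 3.

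Ctsd, encoding the aspartic protease cathepsin D, had the largest count of the cathepsins in shCtr, at 1004, 762 and 751 CPM. It was at 949.7, 1319 and 1288 CPM in shOSGEP#1, 487 and 378 CPM in shOSGEP#2 replicates 1 and 3 and 141 CPM in replicate 2. The deep shOSGEP#2 libraries were below every library of the other groups, and shOSGEP#1 overlapped with shCtr. The mean fell from 839 ± 143 CPM (SD, n = 3) to 432 ± 77.1 CPM (SD, n = 2) (log2 fold change -1.05, SE 0.22, adjusted p = 0.00686, edgeR). With shOSGEP#1 the edgeR estimate was log2 fold change 0.49, SE 0.19, adjusted p = 0.0892, and the difference between the shRNAs passed the test (log2 fold change -1.53, SE 0.22, adjusted p = 0.000806). The call of the fall is fragile, with an adjusted p of 0.0112 with only the groups compared, 0.0284 without shCtr replicate 1, 0.0176 without shCtr replicate 2, 0.0117 without shOSGEP#1 replicate 2, 0.0123 without shCtr replicate 3 and 0.0625 without shOSGEP#2 replicate 3, and the difference between the shRNAs had 0.0106 without shOSGEP#2 replicate 3.

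The other cathepsins did not pass the threshold in the edgeR fit on 8 libraries. Ctsl, encoding cathepsin L, stood at 57.4, 57.5 and 60.5 CPM in shCtr, 69.8, 107 and 158 CPM in shOSGEP#1, 115 and 122 CPM in the deep shOSGEP#2 libraries and 0 in the shallow one. In the deep libraries the Ctsl values of both shRNAs lay above the controls, with edgeR adjusted p = 0.0196 and 0.0296. Ctsl passed for both shRNAs with no filter, with DESeq2 on 8 libraries and without shOSGEP#1 replicate 1, and for shOSGEP#2 also with only the groups compared and without shOSGEP#1 replicate 3. Ctsz, for cathepsin Z, had a log2 fold change of 0.72 in shOSGEP#1 and -0.26 in shOSGEP#2, the former called by DESeq2 on 8 libraries, and Ctsc, for the dipeptidyl peptidase cathepsin C, of 0.41 and 0.61. Ctsf was scarce, with 40, 35 and 53 counts in shCtr, 62, 235 and 265 counts in shOSGEP#1, 36 and 0 counts in shOSGEP#2 replicates 1 and 3 and 0 counts in replicate 2. Its large spread gave a log2 fold change of 2.32 with an SE of 0.91 in shOSGEP#1 (edgeR adjusted p = 0.0925). Ctsh stayed between 1.99 and 4.00 CPM in the 8 deep libraries, and Ctss, the cathepsin of antigen-presenting cells, had 2 counts in shOSGEP#2 replicate 1 and 0 elsewhere, so no fold is given.

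**Figure D3:**
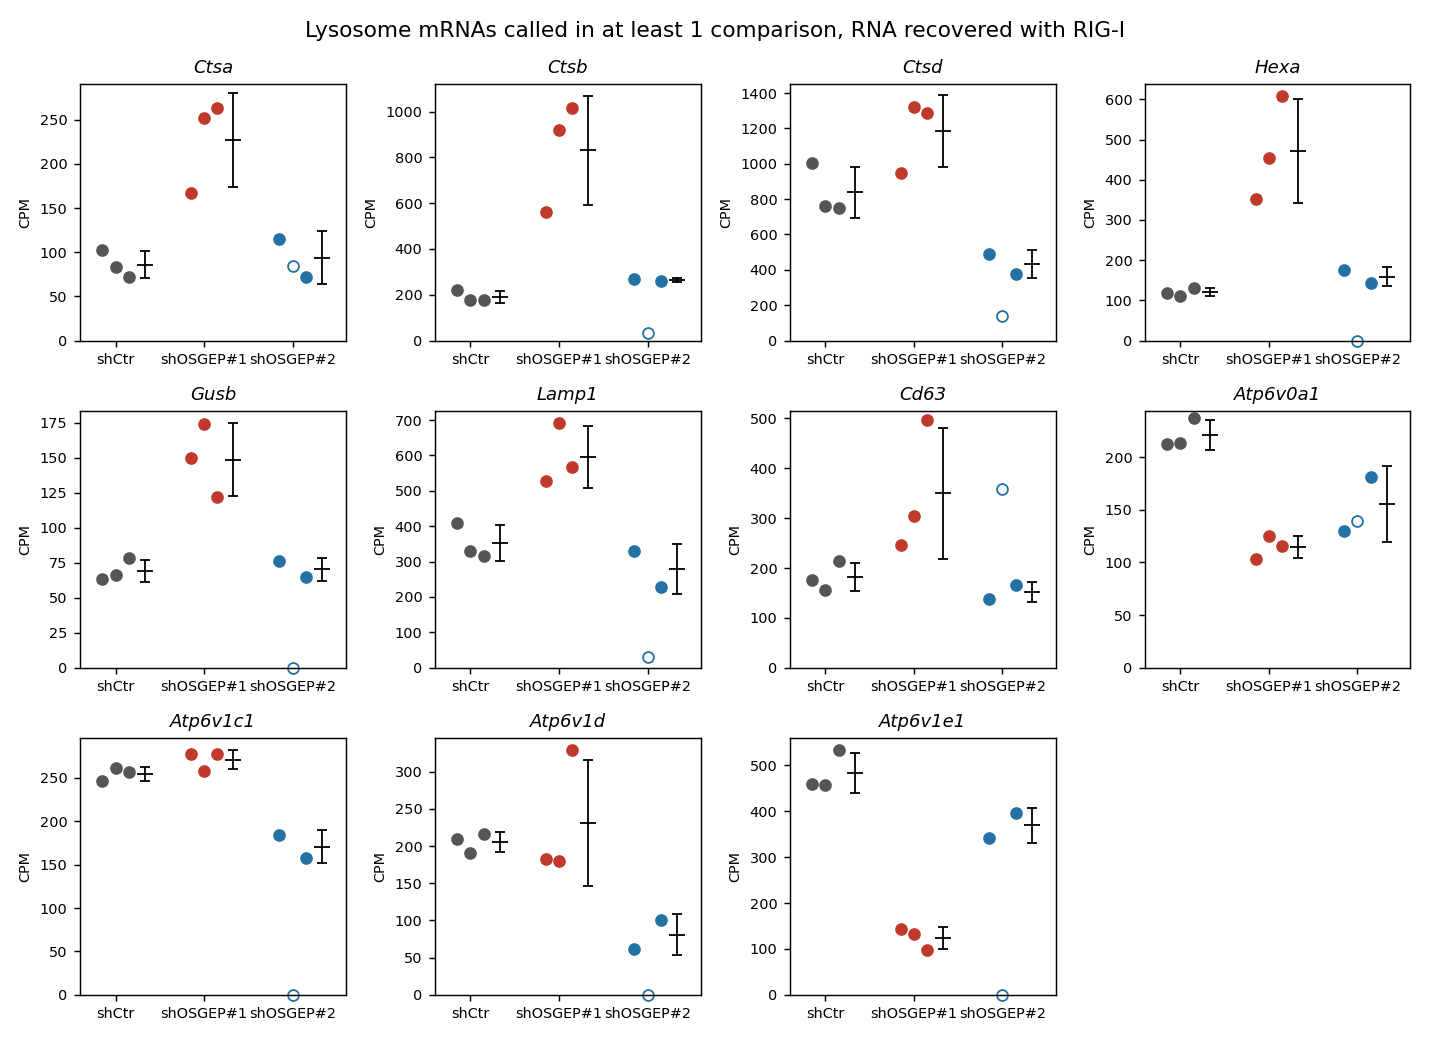
CPM of the 11 members called in at least 1 comparison, 1 panel per gene, with a point per library, the mean and SD beside each group and an open point for shOSGEP#2 replicate 2, which is left out of the mean and of the fit. The shOSGEP#1 points of Ctsb (560.5, 918 and 1015 CPM) lie above all others and those of Atp6v1e1 (143, 133 and 97.6 CPM) below all deep libraries of the other groups.

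Of the 5 glycosidases, Hexa and Gusb rose with shOSGEP#1 and none passed the test with shOSGEP#2 against shCtr. Hexa encodes the alpha subunit of beta-hexosaminidase, which degrades GM2 ganglioside. It was at 119, 111.6 and 131 CPM in shCtr, 353, 454 and 609 CPM in shOSGEP#1, 176 and 142 CPM in shOSGEP#2 replicates 1 and 3 and 0 in replicate 2, which would have held about 90.5 counts at the mean of the others. The shOSGEP#1 libraries were well above all others and the deep shOSGEP#2 libraries just above the controls. The rise from 121 ± 9.80 CPM (SD, n = 3) to 472 ± 129 CPM (SD, n = 3) was 3.88-fold in the edgeR fit (log2 fold change 1.96, SE 0.21, adjusted p = 0.000284). With shOSGEP#2 the estimate was log2 fold change 0.31, SE 0.22, adjusted p = 0.345, and Hexa was lower in shOSGEP#2 than in shOSGEP#1 (log2 fold change -1.65, SE 0.24, adjusted p = 0.000775, with 0.0111 without shOSGEP#2 replicate 3).

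Gusb, encoding beta-glucuronidase, was measured at 63.5, 65.9 and 78.2 CPM in shCtr and 149.7, 174 and 122 CPM in shOSGEP#1. In shOSGEP#2 it was at 76.0 and 64.5 CPM in replicates 1 and 3 and at 0 in replicate 2. The shOSGEP#1 libraries did not overlap with either other group, while shOSGEP#2 replicates 1 and 3 lay inside the range of the controls. Gusb rose with shOSGEP#1 (log2 fold change 1.09, SE 0.17, adjusted p = 0.00174, edgeR) and was lower in shOSGEP#2 than in shOSGEP#1 (log2 fold change -1.16, SE 0.20, adjusted p = 0.00192). The rise had an adjusted p of 0.0113 without shCtr replicate 1, 0.0140 without shCtr replicate 2 and 0.0101 without shOSGEP#1 replicate 2, and the difference between the shRNAs of 0.0223 without shOSGEP#2 replicate 3. For shOSGEP#2 against shCtr the estimate was near 0 (log2 fold change -0.069, SE 0.19, adjusted p = 0.824), and its sign turned under library totals. Glb1, for beta-galactosidase, Gaa, for the acid alpha-glucosidase that degrades glycogen, and Gla, for alpha-galactosidase A, had log2 fold changes of 0.59, 0.43 and -0.42 in shOSGEP#1 and of -0.066, 0.61 and -0.53 in shOSGEP#2, none past the threshold.

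None of the 5 lipid-handling members passed the edgeR threshold in any comparison, and several had values above the controls with both shRNAs. Psap, the precursor of the saposins that activate sphingolipid hydrolases, was at 245, 238 and 281 CPM in shCtr, 327, 516 and 523 CPM in shOSGEP#1, 391 and 606 CPM in shOSGEP#2 replicates 1 and 3 and 517 CPM in replicate 2. Every shOSGEP library, the shallow one included, was above every shCtr library. The edgeR fit gave log2 fold change 0.83, SE 0.21, adjusted p = 0.0188 for shOSGEP#1 and log2 fold change 0.87, SE 0.23, adjusted p = 0.0234 for shOSGEP#2. Both missed the threshold, although for shOSGEP#1 the adjusted p was 0.00555 without shOSGEP#1 replicate 1 and DESeq2 called Psap for both shRNAs on 8 libraries but for neither on all 9. With 1 library left out, the Psap log2 fold change ranged from 0.71 to 1.02 for shOSGEP#1 and from 0.55 to 1.12 for shOSGEP#2. Asah1, for acid ceramidase, was at 31.1, 29.8 and 37.5 CPM in shCtr, 37.8, 51.2 and 59.5 CPM in shOSGEP#1, 55.6 and 64.0 CPM in shOSGEP#2 replicates 1 and 3 and 0 in replicate 2, with every deep shOSGEP library above every control. Asah1 had log2 fold changes of 0.58 and 0.77 for shOSGEP#1 and shOSGEP#2, and Npc1, which exports cholesterol from the lysosome, of 0.34 and 0.60. Npc2, the soluble cholesterol carrier that works with NPC1, had -0.081 and -0.16, and Lipa, for lysosomal acid lipase, had 0.22 and -0.25. The summed level of the group was 625, 603 and 681 CPM in shCtr, 685, 978 and 937 CPM in shOSGEP#1, 788 and 1040 CPM in shOSGEP#2 replicates 1 and 3 and 589 CPM in replicate 2, with every deep shOSGEP library above the controls and the shallow one below them.

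The 4 membrane protein members had positive log2 fold changes with shOSGEP#1, none past the threshold, and Lamp1 and Cd63 were lower in shOSGEP#2 than in shOSGEP#1. Lamp1, an abundant heavily glycosylated protein of the lysosomal membrane, was at 409.6, 329.8 and 317 CPM in shCtr, 527, 693 and 568 CPM in shOSGEP#1, 329.8 and 229 CPM in shOSGEP#2 replicates 1 and 3 and 31.6 CPM in replicate 2. The shOSGEP#1 libraries lay above all others, and the highest shOSGEP#2 library lay inside the control range. The edgeR fit gave log2 fold change 0.75, SE 0.19, adjusted p = 0.0175 for shOSGEP#1 and log2 fold change -0.42, SE 0.21, adjusted p = 0.182 for shOSGEP#2. This shOSGEP#2 value ranged from -0.75 to -0.16 when 1 library was left out. The difference between the shRNAs passed (log2 fold change -1.17, SE 0.22, adjusted p = 0.00344), with 0.0126 with only the groups compared, 0.0141 without shOSGEP#1 replicate 2 and 0.0361 without shOSGEP#2 replicate 3, and the shOSGEP#1 value passed with 0.00977 without shOSGEP#2 replicate 3.

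Cd63, a tetraspanin of lysosomes, melanosomes and exosomes, was at 176, 156 and 214 CPM in shCtr, 247, 304 and 497 CPM in shOSGEP#1, 137 and 166 CPM in shOSGEP#2 replicates 1 and 3 and 358 CPM in replicate 2. The shOSGEP#1 values were above those of shCtr and of the deep shOSGEP#2 libraries but spread widely, and the shallow library went against its group. Cd63 was lower in shOSGEP#2 than in shOSGEP#1 (log2 fold change -1.29, SE 0.28, adjusted p = 0.00751, edgeR, without the shallow library), with an adjusted p of 0.0102 with library totals, 0.0234 with only the groups compared, 0.0152 without shCtr replicate 1, 0.0421 without shOSGEP#2 replicate 1, 0.0127 without shCtr replicate 2, 0.0140 without shOSGEP#1 replicate 2, 0.01005 without shCtr replicate 3 and 0.0361 without shOSGEP#2 replicate 3. Against shCtr it had log2 fold change 0.93, SE 0.24, adjusted p = 0.0191 for shOSGEP#1, passing with 0.00745 without shOSGEP#1 replicate 1, and log2 fold change -0.36, SE 0.27, adjusted p = 0.361 for shOSGEP#2. Without shOSGEP#1 replicate 3 the shOSGEP#1 log2 fold change of Cd63 was 0.58 (edgeR adjusted p = 0.0477). Lamp2, which also serves chaperone-mediated autophagy, was at 86.8, 81.4 and 76.7 CPM in shCtr, 92.4, 167 and 154 CPM in shOSGEP#1, 114 and 105 CPM in shOSGEP#2 replicates 1 and 3 and 3.52 CPM in replicate 2, with every deep shOSGEP library above every control. Lamp2 had log2 fold changes of 0.75 and 0.33 for shOSGEP#1 and shOSGEP#2, and Mcoln1, the calcium channel TRPML1, had 0.72 and 0.41. A processed pseudogene of Cd63 is annotated, so reads of the pair may have been split in the counting.

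In the V0 sector, Atp6v0a1 fell with shOSGEP#1 and none of the other 4 members passed the threshold. Atp6v0a1 encodes an isoform of the large a subunit, through which protons cross the membrane. It stood at 212, 213 and 237 CPM in shCtr, 104, 125 and 116 CPM in shOSGEP#1, 129.7 and 181 CPM in shOSGEP#2 replicates 1 and 3 and 139 CPM in replicate 2. All shOSGEP libraries, the shallow one included, were below all shCtr libraries. Atp6v0a1 fell from 221 ± 14.3 CPM (SD, n = 3) to 115 ± 10.6 CPM (SD, n = 3) (log2 fold change -0.96, SE 0.15, adjusted p = 0.00193, edgeR), with an adjusted p of 0.0108 without shCtr replicate 2. For shOSGEP#2 the estimate was log2 fold change -0.61, SE 0.17, adjusted p = 0.0294, and between the shRNAs log2 fold change 0.35, SE 0.17, adjusted p = 0.156.

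Atp6v0c, for the proteolipid of the rotating membrane ring, had the largest count of the sector. Its level was 826, 837 and 1019 CPM in shCtr, 1041, 1410 and 1332 CPM in shOSGEP#1, 732 and 828 CPM in shOSGEP#2 replicates 1 and 3 and 884 CPM in replicate 2. The shOSGEP#1 libraries lay above the other groups by a margin smaller than the range of the controls. The edgeR fit gave log2 fold change 0.48, SE 0.16, adjusted p = 0.0530 for shOSGEP#1 and log2 fold change -0.29, SE 0.18, adjusted p = 0.273 for shOSGEP#2, neither past the threshold. Processed pseudogenes of Atp6v0c are annotated, which makes its count less certain. Atp6v0d1, for the subunit d that joins the ring to the central stalk, was at 242, 235 and 217 CPM in shCtr, 185, 145 and 151 CPM in shOSGEP#1, 166 and 127 CPM in shOSGEP#2 replicates 1 and 3 and 0 in replicate 2. Atp6v0d1 had log2 fold changes of -0.54 and -0.75 for shOSGEP#1 and shOSGEP#2 (edgeR adjusted p = 0.0319 and 0.0141), with all deep shOSGEP libraries below the controls. Atp6v0b, another ring subunit, and Atp6v0e had 0.18 and -0.045 in shOSGEP#1 and -0.29 and -0.026 in shOSGEP#2.

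The V1 sector held the largest single fall of each shRNA among the members, in a different subunit each time: Atp6v1e1 with shOSGEP#1 and Atp6v1d with shOSGEP#2. Atp6v1e1 encodes subunit E, part of the peripheral stalks. It was at 459.9, 457 and 533 CPM in shCtr, 143, 133 and 97.6 CPM in shOSGEP#1, 342 and 396 CPM in shOSGEP#2 replicates 1 and 3 and 0 in replicate 2, where about 210.1 counts would stand at the mean of the other shOSGEP#2 libraries. All shOSGEP#1 libraries lay far below shCtr and the deep shOSGEP#2 libraries, and the latter were below shCtr by a smaller margin. The mean fell from 483 ± 43.0 CPM (SD, n = 3) to 124 ± 23.7 CPM (SD, n = 3). Atp6v1e1 fell by 1.97 on the log2 scale with shOSGEP#1 (SE 0.17, edgeR adjusted p = 0.000115), a call kept when each of the 8 libraries was left out in turn. With shOSGEP#2 it gave log2 fold change -0.48, SE 0.19, adjusted p = 0.0918, and the difference between the shRNAs passed the test (log2 fold change 1.49, SE 0.18, adjusted p = 0.000387) and did so without each of the 8 libraries.

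Atp6v1d encodes subunit D, the axle that turns inside the V1 head. Its level was 209, 191 and 216 CPM in shCtr, 183, 180.3 and 329 CPM in shOSGEP#1, 61.4 and 100.1 CPM in shOSGEP#2 replicates 1 and 3 and 0 in replicate 2. The deep shOSGEP#2 libraries were below every library of the other groups, and shOSGEP#1 replicate 3 stood above the rest of its group. Atp6v1d fell from 205 ± 13.4 CPM (SD, n = 3) to 80.8 ± 27.4 CPM (SD, n = 2) (log2 fold change -1.45, SE 0.29, adjusted p = 0.00527, edgeR), while shOSGEP#1 gave log2 fold change 0.16, SE 0.24, adjusted p = 0.700. The fall had an adjusted p of 0.0185 without shCtr replicate 1, 0.0343 without shOSGEP#2 replicate 1, 0.0150 without shCtr replicate 2, 0.0171 without shCtr replicate 3 and 0.0103 without shOSGEP#2 replicate 3. Atp6v1d was lower in shOSGEP#2 than in shOSGEP#1 (log2 fold change -1.60, SE 0.29, adjusted p = 0.00275), with 0.0129 with only the groups compared and 0.0208 without shOSGEP#2 replicate 1.

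Atp6v1c1, for subunit C, which leaves the pump when V1 detaches from the membrane, was at 246, 261 and 257 CPM in shCtr, 277, 258 and 277 CPM in shOSGEP#1, 184 and 157 CPM in shOSGEP#2 replicates 1 and 3 and 0 in replicate 2. The shCtr and shOSGEP#1 values were nearly level, and the deep shOSGEP#2 values were below both. It was lower in shOSGEP#2 than in shOSGEP#1 (log2 fold change -0.74, SE 0.15, adjusted p = 0.00614, edgeR), with an adjusted p of 0.0278 with only the groups compared, 0.0137 without shCtr replicate 1, 0.0199 without shOSGEP#1 replicate 1, 0.0160 without shCtr replicate 2, 0.0161 without shOSGEP#1 replicate 2 and 0.0575 without shOSGEP#2 replicate 3. Against shCtr, shOSGEP#2 just missed the threshold (log2 fold change -0.67, SE 0.15, adjusted p = 0.0112), passing with 0.00822 without shOSGEP#1 replicate 3, and shOSGEP#1 gave log2 fold change 0.075, SE 0.13, adjusted p = 0.742. Atp6v1b2, for the B subunit of the head and the V1 member with the largest count in shCtr, was at 498, 598 and 627 CPM there, 463, 424 and 358 CPM in shOSGEP#1, 439 and 446 CPM in shOSGEP#2 replicates 1 and 3 and 102 CPM in replicate 2. All deep shOSGEP libraries were below the controls. The edgeR fit gave log2 fold change -0.48, SE 0.15, adjusted p = 0.0437 for shOSGEP#1 and log2 fold change -0.47, SE 0.17, adjusted p = 0.0762 for shOSGEP#2, neither past the threshold. Atp6v1a, the catalytic A subunit, had log2 fold changes of -0.13 and -0.29, and Atp6v1h, the regulatory H subunit, of 0.034 and 0.28 for shOSGEP#1 and shOSGEP#2.

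The accessory proteins Atp6ap1 and Atp6ap2, which help assemble the pump, had positive log2 fold changes with both shRNAs, none past the threshold. Atp6ap1 was at 116, 99.8 and 111.8 CPM in shCtr, 114, 177 and 212 CPM in shOSGEP#1, 139 and 125 CPM in shOSGEP#2 replicates 1 and 3 and 0 in replicate 2. One shOSGEP#1 library lay inside the control range and the others above it. The edgeR fit gave log2 fold change 0.61, SE 0.20, adjusted p = 0.0555 for shOSGEP#1, passing with 0.00650 without shOSGEP#1 replicate 1, and log2 fold change 0.18, SE 0.23, adjusted p = 0.604 for shOSGEP#2, whose sign turned with the shallow library in the fit. Atp6ap2, also known as the prorenin receptor, was at 42.0, 43.5 and 50.8 CPM in shCtr, 60.0, 106 and 113 CPM in shOSGEP#1, 59.8 and 99.6 CPM in shOSGEP#2 replicates 1 and 3 and 0 in replicate 2. Atp6ap2 had log2 fold changes of 1.02 (edgeR adjusted p = 0.0145) and 0.71 (adjusted p = 0.0895), with all deep shOSGEP libraries above the controls.

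Tfeb and Tfe3, the transcription factors of the list, did not pass the threshold in the edgeR test against shCtr. Tfeb was at 29.7, 30.1 and 38.4 CPM in shCtr, 20.0, 22.8 and 14.2 CPM in shOSGEP#1, 23.6 and 26.6 CPM in shOSGEP#2 replicates 1 and 3 and 0 in replicate 2. All deep shOSGEP libraries were below all controls. The edgeR fit gave log2 fold change -0.80, SE 0.21, adjusted p = 0.0200 for shOSGEP#1 and log2 fold change -0.48, SE 0.24, adjusted p = 0.168 for shOSGEP#2, and DESeq2 on 8 libraries called the first. Tfe3 was at 144, 135 and 96.4 CPM in shCtr, 97.3, 95.9 and 100.3 CPM in shOSGEP#1, 111 and 116 CPM in shOSGEP#2 replicates 1 and 3 and 0 in replicate 2, with each deep shOSGEP group overlapping with shCtr. It gave log2 fold change -0.37, SE 0.16, adjusted p = 0.122 for shOSGEP#1 and log2 fold change -0.24, SE 0.18, adjusted p = 0.363 for shOSGEP#2 in the edgeR fit. These are mRNA counts and say nothing of where the proteins were in the cell, which governs their activity.

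Sqstm1, the autophagy receptor p62 and a stress-responsive gene, had the largest count of the 39 members. It was at 3570, 3553 and 1582 CPM in shCtr, 2079, 1908 and 2517 CPM in shOSGEP#1, 2444 and 2104 CPM in shOSGEP#2 replicates 1 and 3 and 4144 CPM in replicate 2. The controls themselves were split, with shCtr replicate 3 below every other library and the other two above all deep shOSGEP libraries. The mean of 2902 ± 1143 CPM (SD, n = 3) in shCtr therefore had a wide error, and the edgeR fit gave log2 fold change -0.43, SE 0.26, adjusted p = 0.277 for shOSGEP#1 and log2 fold change -0.44, SE 0.30, adjusted p = 0.316 for shOSGEP#2. Without shCtr replicate 3 the log2 fold changes were -0.72 and -0.73, with adjusted p = 0.0159 and 0.0247. The shOSGEP#1 value was -0.26 without shCtr replicate 1 and -0.26 without shCtr replicate 2 (edgeR adjusted p = 0.613 and 0.626). For shOSGEP#2 the weakest value with 1 library left out was -0.26.

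Genes of the same pathways outside the 39 were counted from lists chosen by function. Of 44 other lysosomal hydrolases and activators tested, 10 rose and 1 fell with shOSGEP#1, and 4 rose and 3 fell with shOSGEP#2. Over all genes tested, 5% rose and 4.67% fell with shOSGEP#1, and 5.66% rose and 3.89% fell with shOSGEP#2, and nothing particular to a list is read from the counts here or below. The median log2 fold change of these hydrolases was 0.66 for shOSGEP#1, beside 0.0021 over all genes, and 0.23 for shOSGEP#2, beside -0.057. With shOSGEP#1 the lowest p values among those that rose belonged to Naglu, which degrades heparan sulfate (log2 1.55, SE 0.19, adjusted p = 0.000530, edgeR), Ppt1, a palmitoyl thioesterase (log2 1.69, SE 0.21, adjusted p = 0.000545), and Gm2a, the activator that presents GM2 ganglioside to the enzyme encoded in part by Hexa (log2 1.51, SE 0.21, adjusted p = 0.000933). Fuca1, for alpha-L-fucosidase, was the 1 that fell (log2 -1.52, SE 0.18, adjusted p = 0.000442). With shOSGEP#2, Ctso (log2 2.52, SE 0.37, adjusted p = 0.000945, edgeR) and the serine carboxypeptidase gene Scpep1 (log2 1.58, SE 0.24, adjusted p = 0.00125) rose, and Dpp7 fell (log2 -0.96, SE 0.17, adjusted p = 0.00297). The call of Dpp7 was not kept in all alternatives (adjusted p of 0.01004 with only the groups compared, 0.0105 without shCtr replicate 1, 0.0168 without shOSGEP#2 replicate 1, 0.0104 without shCtr replicate 2 and 0.0105 without shOSGEP#2 replicate 3). Scpep1 and Dpp7 were also among the 10 that rose with shOSGEP#1, so Dpp7 was called in opposite directions with the shRNAs. Dpp7 was at 75.4, 71.8 and 72.5 CPM in shOSGEP#1, against 43.3, 42.0 and 51.2 CPM in shCtr. Between the shRNAs, 4 of the 44 were higher and 10 lower in shOSGEP#2 (all genes: 6.23% and 4.56%), among the latter Gm2a (log2 -2.22, SE 0.25, adjusted p = 0.000246).

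Of 29 other lysosomal membrane proteins and transporters, 2 rose and 1 fell with shOSGEP#1 (all genes: 5% and 4.67%), and 2 rose and 0 fell with shOSGEP#2 (all genes: 5.66% and 3.89%). The 1 that fell was Laptm4b (log2 -1.19, SE 0.19, adjusted p = 0.00177, edgeR). Of 9 other pump subunits tested, 0 passed with shOSGEP#1, and 1 (against 3.89% of all genes), Tcirg1, the a3 subunit isoform, fell with shOSGEP#2 (log2 -1.11, SE 0.21, adjusted p = 0.00402, edgeR, with an adjusted p of 0.0144 without shCtr replicate 1, 0.0269 without shOSGEP#2 replicate 1, 0.0189 without shCtr replicate 2 and 0.0116 without shOSGEP#2 replicate 3). Tcirg1 was also lower in shOSGEP#2 than in shOSGEP#1 (log2 -1.53, SE 0.21, adjusted p = 0.000685). Among 19 regulators of lysosomal nutrient signalling and of the MiT/TFE factors, 1 rose and 3 fell with shOSGEP#1 (all genes: 5% and 4.67%), and 1 rose and 4 fell with shOSGEP#2 (all genes: 5.66% and 3.89%). The transcriptional repressor Bhlhe41 fell with shOSGEP#1 (log2 -2.29, SE 0.15, adjusted p = 5.53e-05, edgeR) and with shOSGEP#2 (log2 -2.19, SE 0.17, adjusted p = 7.10e-05), in comparisons that share the shCtr libraries. Mtor, the kinase that keeps TFEB out of the nucleus, fell with shOSGEP#1 (log2 -1.24, SE 0.19, adjusted p = 0.00143, edgeR) and was higher in shOSGEP#2 than in shOSGEP#1 (log2 1.36, SE 0.20, adjusted p = 0.000927).

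Among 28 autophagy receptors and machinery genes, 0 rose and 3 fell (Vps18, Atg5 and Atg7) with shOSGEP#1, against 5% and 4.67% of all genes, and 0 rose and 3 fell (Tecpr1, Vps11 and Atg13) with shOSGEP#2, against 5.66% and 3.89%. Tecpr1, a tether of autophagosomes to lysosomes, had the lowest p of these in the edgeR test (log2 -1.30, SE 0.18, adjusted p = 0.000704). The calls of the others were less secure, with an adjusted p for Atg5 of 0.0140 without shCtr replicate 2, for Atg7 of 0.0106 without shCtr replicate 1 and 0.0131 without shCtr replicate 2 and for Vps18 of 0.0130 without shCtr replicate 2 and 0.0119 without shOSGEP#1 replicate 2. Vps11 had 0.0122 without shCtr replicate 1, 0.0179 without shOSGEP#2 replicate 1, 0.0167 without shCtr replicate 2, 0.01001 without shCtr replicate 3 and 0.0119 without shOSGEP#2 replicate 3. Atg13 had 0.0101 with library totals, 0.0205 with only the groups compared, 0.0268 without shCtr replicate 1, 0.0129 without shOSGEP#1 replicate 1, 0.0349 without shCtr replicate 2, 0.0149 without shOSGEP#1 replicate 2, 0.0119 without shCtr replicate 3 and 0.0561 without shOSGEP#2 replicate 3. Of 11 genes for receptors and sorting of lysosomal enzymes, 0 rose and 1 fell (Ap1m1) with shOSGEP#1, against 5% and 4.67% of all genes, and 0 rose and 1 fell (Gga3) with shOSGEP#2, against 5.66% and 3.89%. Ap1m1 had log2 -1.15, SE 0.22, adjusted p = 0.00448 (edgeR), with an adjusted p of 0.0217 without shCtr replicate 1, 0.0177 without shCtr replicate 2, 0.0242 without shOSGEP#1 replicate 2, 0.0120 without shCtr replicate 3 and 0.0186 without shOSGEP#1 replicate 3, and Gga3 had log2 -1.21, SE 0.21, adjusted p = 0.00252, with 0.0137 without shCtr replicate 1, 0.0130 without shCtr replicate 2 and 0.0220 without shOSGEP#2 replicate 3.

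Levels of different genes are compared per length, as CPM divided by the kilobases of the transcript with the longest coding sequence. On this scale Sqstm1 had the highest mean in shCtr at 1424 CPM per kb, followed by Atp6v0c at 756, Ctsd at 394 and Atp6v1e1 at 368 CPM per kb. In shCtr replicate 3 alone Atp6v0c was above Sqstm1. In shOSGEP#1 the level of Atp6v1e1 was 94.9 CPM per kb and its place went from 4 to 16 of 39. Hexa went from place 17 to 6 at 236 CPM per kb, and Ctsb from place 21 to 10 at 175 CPM per kb. Ctss, Ctsf and Ctsh held the lowest 3 places in all groups. The members' transcripts had a median length of 2296 bases, against 2988 bases for the 12623 tested genes with a value, and ran from 442 bases in Atp6v0e to 6168 bases in Ctsl. Their median GC content was 51.3%, against 50.7%. Codons that begin with A, those read by the tRNAs that OSGEP helps modify, made up a median of 28.0% of the members' codons, from 22.2% in Sqstm1 to 37.0% in Lamp2, against a median of 26.9% for all tested genes with a value. Transcript models came from an annotation of GRCm38, an earlier build than that of the counts.

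The bases before the members' transcription starts were searched on both strands for the element bound by TFEB and TFE3. RefSeq promoters of build GRCm38.p6 were found for 32 of the 39 members (39 starts), with Ctsb, Asah1, Atp6v1b2, Atp6v1c1, Atp6v1h, Ctsh and Npc1 not matched, and the 250 bases upstream of each start were used. The letters CACGTG, which read the same on the other strand, stood in 11 of the 39 member promoters (28.2%) and in 6.02% of all 32851 promoters of the same length. The longer TCACGTG, which has 1 base more and was searched on either strand, stood in 9 (23.1%) against 3.13%, and the palindrome TCACGTGA, which contains both, in 5 (12.8%) against 0.785%. The related TCATGTG on either strand stood in 2 (5.13%) against 3.25%. Members with TCACGTG were Atp6v0b, Atp6v1a, Ctsa, Ctsd, Gaa, Gla, Glb1, Lamp1 and Mcoln1. Of the members that rose with shOSGEP#1 and have a promoter here, Ctsa held it and Hexa and Gusb did not, and Ctsd, Lamp1 and Atp6v1a held it and had an adjusted p of 0.0892, 0.0175 and 0.551 for shOSGEP#1 in the edgeR test, above the threshold. A match is a description of these letters only. The stretches of Ctsa at chr2:164833523-164833772 (+ strand), Ctsd at chr7:142387828-142388077 (- strand), Lamp1 at chr8:13158911-13159160 (+ strand) and Atp6v1a at chr16:44139260-44139509 (- strand) are shown because they hold the letters in an enzyme that rose, an enzyme that fell with shOSGEP#2, a membrane protein and a pump subunit, and that of Hexa at chr9:59539290-59539539 (+ strand) because this strongly changed member lacks them. Capitals mark TCACGTG on either strand, with the last base of the palindrome where it is complete, and each stretch reads 5′ to 3′ and ends at the base before the start.
Ctsa: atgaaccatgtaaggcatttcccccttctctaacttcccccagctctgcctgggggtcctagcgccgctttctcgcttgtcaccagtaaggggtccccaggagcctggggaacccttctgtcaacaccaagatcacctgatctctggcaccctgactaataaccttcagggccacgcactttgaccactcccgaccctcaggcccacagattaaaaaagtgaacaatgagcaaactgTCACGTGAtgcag
Ctsd: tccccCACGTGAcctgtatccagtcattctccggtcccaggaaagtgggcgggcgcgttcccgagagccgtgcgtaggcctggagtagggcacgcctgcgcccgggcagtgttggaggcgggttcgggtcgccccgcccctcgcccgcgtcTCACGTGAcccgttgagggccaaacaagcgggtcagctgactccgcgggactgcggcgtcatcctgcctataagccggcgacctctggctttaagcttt
Lamp1: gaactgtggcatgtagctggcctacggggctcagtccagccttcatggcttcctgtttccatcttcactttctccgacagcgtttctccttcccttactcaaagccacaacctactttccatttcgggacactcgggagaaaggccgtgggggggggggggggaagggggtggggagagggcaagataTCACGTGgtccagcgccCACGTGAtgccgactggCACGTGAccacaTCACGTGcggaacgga
Atp6v1a: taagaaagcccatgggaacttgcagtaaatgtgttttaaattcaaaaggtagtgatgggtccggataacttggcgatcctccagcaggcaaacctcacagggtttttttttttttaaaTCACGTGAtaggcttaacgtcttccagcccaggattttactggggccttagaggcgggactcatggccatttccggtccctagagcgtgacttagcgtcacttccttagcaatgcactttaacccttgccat
Hexa: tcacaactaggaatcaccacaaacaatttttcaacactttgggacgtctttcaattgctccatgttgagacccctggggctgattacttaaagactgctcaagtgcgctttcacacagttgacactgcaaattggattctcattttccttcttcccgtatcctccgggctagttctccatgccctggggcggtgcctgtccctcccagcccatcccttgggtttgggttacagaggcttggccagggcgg

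The Ctsa match ended 5 bases before the start of 1 of its 2 listed transcripts. Ctsd held 2 matches and Lamp1 4, while Atp6v1a held 1. The GC content of the 5 stretches was 54.4% for Ctsa, 67.2% for Ctsd, 59.6% for Lamp1, 46.4% for Atp6v1a and 51.6% for Hexa.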

How the data were processed

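Per the labels, RNA recovered with FLAG-tagged RIG-I from B16F10 cells was sequenced in 9 libraries. The submitters' processing notes name Trim Galore, STAR and Salmon, the study gives GRCm39 as the build, and the values used are the whole-number counts the authors deposited, which were not normalized. The library kit is a stranded one, the strand setting of the counting is not given in the sources used here, and 11 of the members have exons that overlap another counted gene (2 of them, Ctsd and Glb1, on the same strand), which makes their counts less certain. Identifiers were matched to symbols for 22237 of 22396 genes, and GENCODE M21 transcripts of GRCm38 gave lengths for 21311. The members and the other gene lists were chosen with earlier results of these data known. CPM used library totals. Genes were tested with edgeR 4.0.16 in R 4.3.3 (TMM, filterByExpr, quasi-likelihood test, a coefficient per group) on 8 libraries, without the shallow shOSGEP#2 replicate 2, with Benjamini-Hochberg adjustment over 12744 genes and a threshold of 0.01. SE is taken from the estimate and F, as |log2 fold change| / sqrt(F).  Full statistics are given for members called in any comparison, the member of each role with the most counts in shCtr, Tfeb, Tfe3 and Sqstm1, and by name at most 5 genes per direction of other lists, those with the lowest p. The labels only number the replicates, the study describes them as biological replicates of independent experiments, and p values measure the spread between these libraries. Alternatives were DESeq2 1.42.0, all 9 libraries, RLE, library totals, no filter, at least 10 counts in every library, adjusted p under 0.05, only the groups compared, a replicate block, and leaving out each library. Tables and plots used Python 3.11.15, pandas 2.3.3 and matplotlib 3.10.9.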

Additional observations from a re-analysis of the deposited data

Results flagged for a closer look

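The following members differed between the shRNAs by the edgeR test of shOSGEP#2 against shOSGEP#1, although both target Osgep. Lower in shOSGEP#2, on the log2 scale, were Atp6v1c1 (-0.74), Atp6v1d (-1.60), Cd63 (-1.29), Ctsa (-1.35), Ctsb (-1.73), Ctsd (-1.53), Gusb (-1.16), Hexa (-1.65) and Lamp1 (-1.17), and Atp6v1e1 was higher (1.49). The shRNAs are different sequences in separately infected cells, so an effect of 1 shRNA on other transcripts and a difference in OSGEP depletion cannot be told apart. For Osgep itself the edgeR fit of shOSGEP#2 against shOSGEP#1 gave log2 fold change -0.74, SE 0.87, adjusted p = 0.568. This rests on 2 and 43 Osgep counts in shOSGEP#2 replicates 1 and 3.

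Members above every shCtr library in shOSGEP#2 replicate 2, the library left out of the fit, were read with exact Poisson intervals at 95%, which cover counting error only. They were Gaa at 264 CPM (interval 223 to 309 CPM), Psap at 517 CPM (interval 459 to 579 CPM), Cd63 at 358 CPM (interval 311 to 411 CPM), Mcoln1 at 188 CPM (interval 154 to 227 CPM), Atp6v1h at 214 CPM (interval 178 to 256 CPM) and Sqstm1 at 4144 CPM (interval 3979 to 4315 CPM). In the same library 21 members had no count, so its profile stood apart in both directions.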

How the results depend on the processing

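Of 106 fold changes of named genes for which alternatives were tabulated, 75 passed the threshold, and these 75 kept their direction in all alternatives tried, while 23 of them kept the call in every alternative other than those with shOSGEP#2 replicate 2 in the fit. For shOSGEP#1 versus shCtr, the 1232 genes called became 0 with all 9 libraries, 2419 with DESeq2 on 8 libraries, 122 with DESeq2 on all 9 and 2797 at an adjusted p under 0.05, and ranged from 318 to 1458 when 1 library was left out. The 6 members called became 0 with all 9 libraries, 16 with DESeq2 on 8 libraries, 0 with DESeq2 on all 9, 12 without a filter (all genes: 1748 of 15710), 10 with the replicate block (all genes: 1380 of 12744) and 18 at an adjusted p under 0.05, with a range of 3 to 12 when 1 library was left out. The members' median of 0.42 ranged from 0.29 to 0.59 when 1 library was left out. For shOSGEP#2 versus shCtr, the 1217 genes called became 0 with all 9 libraries, 2405 with DESeq2 on 8 libraries, 349 with DESeq2 on all 9 and 2674 at an adjusted p under 0.05, and ranged from 518 to 1471 when 1 library was left out. The 2 members called became 0 with all 9 libraries, 9 with DESeq2 on 8 libraries, 0 with DESeq2 on all 9, 5 without a filter (all genes: 1603 of 15710) and 9 at an adjusted p under 0.05, with a range of 0 to 4 when 1 library was left out. The members' median of -0.20 became -0.53 with all 9 libraries, -0.14 with DESeq2 on 8 libraries, -0.48 with DESeq2 on all 9, -0.18 with RLE normalization, -0.10 with library totals, -0.16 without a filter, -0.14 with at least 10 counts in every library, -0.18 with only the groups compared and -0.16 with the replicate block, and ranged from -0.21 to -0.10 when 1 library was left out. For shOSGEP#2 versus shOSGEP#1, the 1375 genes called became 0 with all 9 libraries, 2592 with DESeq2 on 8 libraries, 413 with DESeq2 on all 9, 737 with only the groups compared and 2952 at an adjusted p under 0.05, and ranged from 743 to 1504 when 1 library was left out. The 10 members called became 0 with all 9 libraries, 1 with DESeq2 on all 9 and 5 with only the groups compared, with a range of 2 to 11 when 1 library was left out. The members' median of -0.26 became -0.66 with all 9 libraries and -0.64 with DESeq2 on all 9, and ranged from -0.40 to -0.19 when 1 library was left out. For these movements the cause was not tested. With all 9 libraries the median of all genes was -0.36 for shOSGEP#2 against shCtr, so the members lay -0.16 from it, beside -0.14 with 8. That distance was -0.22 with DESeq2 on all 9, -0.055 without shCtr replicate 3 and -0.065 without shOSGEP#2 replicate 1. For shOSGEP#2 against shOSGEP#1 the median of all genes was -0.35 with all 9. There the members lay -0.32 from it, beside -0.22 with 8 and -0.087 without shOSGEP#2 replicate 1. Among these 106, signs turned only for values that had not passed the threshold: against shCtr, with shOSGEP#1, Atp6v1d -0.19 to 0.30 when 1 library was left out (reversed without shOSGEP#1 replicate 3), and with shOSGEP#2, Ctsa -0.16 with all 9 libraries, -0.16 with DESeq2 on all 9 and -0.38 to 0.36 when 1 library was left out (reversed without shOSGEP#2 replicate 1 and without shCtr replicate 3), Ctsb -0.12 with all 9 libraries and -0.17 with DESeq2 on all 9, Gusb 0.023 with library totals and -0.23 to 0.071 when 1 library was left out (reversed without shCtr replicate 3 and without shOSGEP#2 replicate 3), Hexa -0.25 with all 9 libraries and -0.31 with DESeq2 on all 9 and Atp6ap1 -0.38 with all 9 libraries and -0.43 with DESeq2 on all 9, for which the cause was not tested. The labels do not pair the replicates. The deviations of same-numbered libraries correlated by -0.020 to 0.16 (7 pairs, across genes, mean 0.067), and only 2 of these pairs were over the 0.1 asked for pairing. However, 6 of 8 libraries correlated best with their own number, a hint from the data and not the design. The deep shOSGEP#2 libraries deviate from their shared mean by opposite amounts. Their correlations therefore mirror each other (0.16 and -0.16 with shCtr replicate 1), and the 6 are not independent. A fit with the replicate block called 10, 3 and 11 members in the 3 comparisons and 1380 of 12744, 1238 of 12744 and 1393 of 12744 of all genes, and for shOSGEP#2 against shCtr the members were Psap, Atp6v0d1 and Atp6v1d, without Ctsd (adjusted p = 0.0106). With only the groups compared, the members called between the shRNAs were Atp6v1e1, Ctsb, Ctsd, Gusb and Hexa. Depth limits shOSGEP#2, since only replicates 1 and 3 carry its estimates, and leaving out either leaves a lone library that is assumed to vary like the other groups.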

Other observations

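Mitf, the relative of Tfeb and Tfe3 that governs pigment cells, was at 297, 357 and 784 CPM in shCtr, 401, 399.8 and 448 CPM in shOSGEP#1, 168 and 216 CPM in shOSGEP#2 replicates 1 and 3 and 0 in replicate 2. The shCtr replicate with the lowest Sqstm1 was the one with the highest Mitf. Mitf is one of the melanoma line markers and was singled out after its values were seen.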
